A study of Mus musculus with 2 samples.

Results

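The miR-17-92 polycistron is a set of 6 microRNA (miRNA) genes, Mir17, Mir18, Mir19a, Mir20a, Mir19b-1 and Mir92-1, that lie side by side in the non-coding host gene Mir17hg. They were chosen by their position in that host gene, and all 6 have a row among the 1973 miRNA genes of each table. The levels come from small RNA sequencing of kidneys of B6NCrl mouse embryos at 14.5 days of gestation, with no treatment or altered allele named in the labels. There was 1 group with 2 biological replicates, each made from 2 kidneys and collected on a different day. The labels name 1 pup for each sample but also material of both sexes and the same donor identifier for both samples, so the number of embryos behind a sample is not settled, and each SD or p-value speaks of these 2 libraries alone, with technical spread included. Replicate 1 held 5202588 counts on the strand of miRNA genes and replicate 2 held 3683978, and levels are given in CPM, counts per 1000000 of these. A read of a small RNA library covers a whole mature miRNA, so CPM was not divided by gene length.

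A polycistron is 1 primary transcript that holds several miRNA hairpins. Drosha cuts the hairpins out, Dicer trims each to a short duplex, and an arm of the duplex is loaded into an Argonaute protein, where the seed, bases 2 to 8, pairs with target messages. The miR-17-92 transcript is induced by Myc and is known for promoting proliferation and survival, and its deletion in nephron progenitors of the mouse impairs nephron formation. Its members fall into 4 seed groups with partly different targets.

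The mature sequences show which members can bind the same targets and which can be told apart by their reads. All 6 members matched the RefSeq table of the GRCm38.p6 build. The arm generally described as the guide of each is printed 5′ to 3′ in the order of the transcript, with the seed in capitals.
miR-17-5p from Mir17: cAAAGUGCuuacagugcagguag
miR-18a-5p from Mir18: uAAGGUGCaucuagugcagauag
miR-19a-3p from Mir19a: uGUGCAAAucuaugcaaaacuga
miR-20a-5p from Mir20a: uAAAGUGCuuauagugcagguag
miR-19b-3p from Mir19b-1: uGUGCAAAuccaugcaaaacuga
miR-92a-3p from Mir92-1: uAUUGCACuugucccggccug

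Mir17 and Mir20a have the same seed, and over their 23 bases they differ only at C1U and C12U (the base of the first gene, its position from 1 at the 5′ end, then the base of the second). Both are known to target the cell cycle inhibitor Cdkn1a and the pro-apoptotic Bcl2l11. The seed of Mir18 differs from that of Mir17 at 1 base, A4G, and its miRNA is known for repressing the connective tissue growth factor Ctgf. Mir19a and Mir19b-1 share a seed and differ at 1 base in 23, U11C. Mir92-1 forms a seed group alone within the transcript, and its miRNA is known for targeting integrin alpha 5 in endothelial cells. Counts were made per gene and not per arm, so the part of each count that came from the printed arm was not measured.

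In 2 of the 6 members the printed arm has an exact copy in another annotated miRNA gene. The arm of Mir19b-1 recurs in Mir19b-2, inside a stretch of 25 bases that both hairpins share, and the arm of Mir92-1 recurs in Mir92-2, inside a shared stretch of 22 bases. A read that lies wholly within such a stretch matches both genes equally. Reads that mapped to several places were set apart by the authors and are in no gene's count. They made up 28.3% of reads in replicate 1 and 27.5% in replicate 2, that is 10.1 and 9.15 times the summed counts of the 6 members, and how many of them belong to Mir19b-1 or Mir92-1 was not measured. The other 4 arms have no exact copy among the annotated miRNA hairpins. Their longest stretch shared with another gene is 13 bases for Mir17 (with Mir106a) and for Mir20a (with Mir20b), 17 for Mir18 (with Mir18b) and 12 for Mir19a (with Mir19b-1 and Mir19b-2). The rest of the genome was not searched for copies.

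The 6 hairpins lie on the plus strand within 836 bases of chromosome 14 (mm10, GENCODE release M21), all in exon 2 of the 2 exons of the annotated Mir17hg transcript (chr14:115042879-115046727). The gaps between neighbouring hairpins are 96, 53, 75, 41 and 35 bases from the 5′ to the 3′ end. Although they share a transcript, their counts differed by up to 793-fold, for Mir17 over Mir19b-1, which lacks reads that also fit Mir19b-2. Over Mir19a, whose arm has no exact copy among the annotated miRNA hairpins, Mir17 was 572-fold higher. Mir17, Mir20a, Mir18 and Mir92-1 lay between 4578 and 33519 CPM in the mean, and the miR-19 genes at 58.6 and 42.3 CPM.

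Mir17 (ENSMUSG00000065508.1; chr14:115043671-115043754), the first hairpin, was counted 173442 times in replicate 1 and 124151 times in replicate 2, which gives 33519 ± 256 CPM (SD, n = 2). Mir18 (ENSMUSG00000065403.1; chr14:115043851-115043946), the second, had 25556 and 18010 counts, 4900 ± 16.6 CPM. Mir19a (ENSMUSG00000065416.1; chr14:115044000-115044081), the third, had 298 and 221 counts, 58.6 ± 1.92 CPM. The level thus fell from the first hairpin to the third, but it did not go on falling along the transcript. Mir20a (ENSMUSG00000065442.1; chr14:115044157-115044263), the fourth, had 66643 and 45562 counts, 12589 ± 313 CPM. Mir19b-1 (ENSMUSG00000076256.1; chr14:115044305-115044391), the fifth, had 200 and 170 counts, 42.3 ± 5.45 CPM. Mir92-1 (ENSMUSG00000076062.1; chr14:115044427-115044506), the last, had 25948 and 15357 counts, 4578 ± 579 CPM. By these counts, in which Mir19b-1 lacks reads that also fit Mir19b-2, the low members were the 2 hairpins of the miR-19 seed group in both replicates. In bulk tissue, fewer cells of a type and less RNA per cell cannot be told apart.

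**Figure D1:**
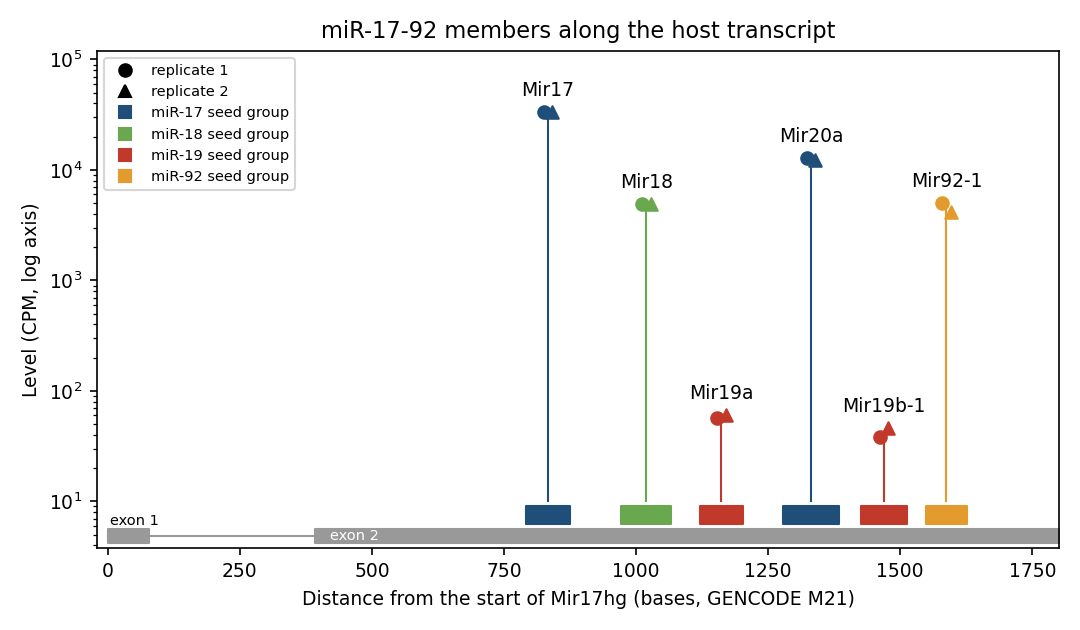
Level of each member in CPM (log axis) against distance in bases from the start of Mir17hg, with circles for replicate 1, triangles for replicate 2 and colours for seed groups; the coloured blocks are hairpins and the grey bars exons, and the 3′ end of exon 2 is not drawn. The 2 miR-19 hairpins lie below their neighbours in both replicates, and the mean CPM of Mir18 was 83.6-fold that of Mir19a.

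Within a library the ratio of 2 members needs no scaling. Mir17 exceeded Mir20a, which shares its seed, by 1.41 ± 0.05 (SD, n = 2) on the log2 scale, or 2.66-fold. That log2 ratio of counts was 1.38 in replicate 1, with 95% exact limits of 1.37 and 1.39, and 1.45 in replicate 2, with limits of 1.43 and 1.46. Mir17 exceeded Mir18 by 2.77 ± 0.02 and Mir92-1 by 2.88 ± 0.19 on the log2 scale. It exceeded Mir19a by 9.16 ± 0.04, a 572-fold difference of mean CPM, and Mir19b-1 by 9.64 ± 0.18, a 793-fold difference. Each of these differences was many times the spread between replicates. A bias by sequence that both libraries share would not show in that spread, and its part in these differences was not measured. With 2 replicates no exact permutation test can pass a threshold of 0.05, so no p-value is given for them. All intervals here cover counting error only, since amplified reads that carry no molecular identifier cannot be counted as separate molecules.

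Between Mir18 and Mir92-1 the order depended on the library. Their log2 ratio, Mir18 over Mir92-1, was -0.02 in replicate 1 (95% exact interval -0.05 to 0.003) and 0.23 in replicate 2 (0.20 to 0.26), so these members did not differ beyond their spread. Mir19a exceeded Mir19b-1 by 0.58 in replicate 1 (0.31 to 0.84) and by 0.38 in replicate 2 (0.08 to 0.68), or 0.48 ± 0.14. Reads that fit both Mir19b-1 and Mir19b-2 are missing from the latter comparison, and their part in it was not tested. By these counts the order was thus Mir17, then Mir20a, then Mir18 and Mir92-1 without a settled order, then Mir19a, then Mir19b-1. Reads that fit both Mir92-1 and Mir92-2 are missing as well, and the place of Mir92-1 with them included was not measured.

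Among the 345 miRNA genes with at least 10 counts in each replicate, called detected here, Mir17 ranked 8 by mean CPM, Mir20a 18, Mir18 37, Mir92-1 41, Mir19a 206 and Mir19b-1 219. Mir17 lay between Mirlet7g at 34042 ± 3298 CPM and Mir322 at 30535 ± 675 CPM. Mirlet7g was above Mir17 in replicate 1, at 36374 CPM, and below it in replicate 2, at 31710 CPM, so that pair has no settled order. Mir322, at 30058 and 31012 CPM, was below Mir17 in both. Mir20a lay between Mir429 and Mir30a, and its level was below Mir429 and above Mir30a in both replicates. At the low end Mir19a lay between Mir6236 and Mir667, whose levels of 90.1 and 28.0 CPM and of 67.9 and 47.8 CPM spanned that of Mir19a in both cases.

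The share of own-strand counts held by the 6 genes together was 5.57% ± 0.0644 (SD, n = 2). It was 5.61% in replicate 1, with exact Clopper-Pearson limits (95%) of 5.59 and 5.63, and 5.52% in replicate 2, with limits of 5.50 and 5.55. Counted over all reads of a library, including unmapped reads and those at several places, the share was 2.90%. Within the polycistron the seed groups were far from equal. The miR-17 seed group, Mir17 and Mir20a, held 82.8% ± 0.857 of the members' counts, with 82.2% in replicate 1 and 83.4% in replicate 2. Mir18 held 8.80% ± 0.0721, and Mir92-1 held 8.22% ± 0.945, with 8.88% in replicate 1 and 7.55% in replicate 2. The miR-19 seed group held 0.170% in replicate 1 (0.156 to 0.186) and 0.192% in replicate 2 (0.174 to 0.212), or 0.181% ± 0.0153. Without Mir19b-1 and Mir92-1, whose arms have exact copies, Mir19a as the only remaining gene of the miR-19 group held 0.115%.

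Mammalian genomes hold paralogous clusters of the polycistron, miR-106a-363 on the X chromosome and miR-106b-25 inside the replication gene Mcm7 on chromosome 5. All 9 of their genes were detected. The miR-106b-25 genes held 1.86% ± 0.106 of own-strand counts and the miR-106a-363 genes 0.0875% ± 0.00231, against 5.57% for miR-17-92. The arms of Mir106a, Mir18b and Mir20b, printed with the seed in capitals, show how close the counterparts on the X chromosome are.
miR-106a-5p from Mir106a: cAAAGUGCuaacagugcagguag
miR-18b-5p from Mir18b: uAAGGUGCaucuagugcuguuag
miR-20b-5p from Mir20b: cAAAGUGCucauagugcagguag

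Mir106a differs from Mir17 at 1 base, U10A, Mir18b from Mir18 at A18U and A20U, and Mir20b from Mir20a at U1C and U10C. Each seed is the same as that of its counterpart. Each of the 5 miR-17-92 genes with a counterpart was higher than it in both replicates, and Mir19a has none. Mir17 stood at 110-fold the level of Mir106a, which had 1559 counts in replicate 1 and 1135 in replicate 2, and Mir18 at 209-fold the level of Mir18b, which had 144 and 71. Mir20a stood at 65.5-fold the level of Mir20b, which had 1076 and 654 counts. The ratio was lower for the pairs whose printed arms are identical. Mir92-1 stood at 34.3-fold the level of Mir92-2 (792 and 422 counts) and Mir19b-1 at 5.17-fold the level of Mir19b-2 (40 and 32 counts), and in these pairs a read can be given to 1 gene only if it reaches beyond the shared stretch, differs from it or comes from the other arm. How far that lowers either gene was not tested. Mir363, whose place in its cluster has no counterpart in miR-17-92, had 1027 and 850 counts, 214 ± 23.6 CPM. The miR-19 gene was the lowest of its cluster on the X chromosome too, as Mir106a exceeded Mir19b-2 by 5.22 ± 0.10 on the log2 scale.

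**Figure D2:**
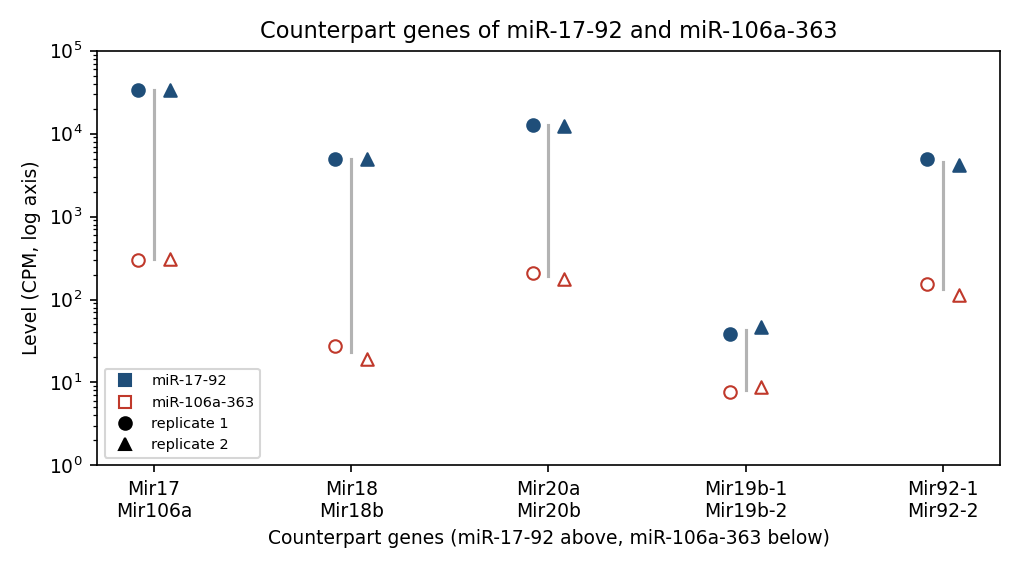
Level in CPM (log axis) of 5 miR-17-92 genes (filled) and their counterparts in miR-106a-363 (open), with circles for replicate 1 and triangles for replicate 2; the grey line joins the means. Every filled symbol lies above the open symbols of its pair, by 209-fold for Mir18 and by 5.17-fold for Mir19b-1.

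Pooling the 3 clusters by seed shows how much of each family came from miR-17-92. Of the miR-17 seed family (Mir17, Mir20a, Mir93, Mir106b, Mir106a and Mir20b), at 64149 ± 766 CPM in sum, the members held 71.9% ± 0.946. Their part was 72.6% in replicate 1 (95% exact interval 72.4 to 72.7) against 71.2% in replicate 2 (71.0 to 71.4). Most of the remainder was Mir93 at 9659 ± 207 CPM and Mir106b at 7886 ± 629 CPM from the Mcm7 cluster, which lay below Mir20a. The miR-18 family was almost wholly from Mir18, at 99.5% ± 0.119. The counted reads of the miR-19 family summed to 109 ± 8.07 CPM, of which the members held 92.5% ± 0.0920. Reads that fit both Mir19b-1 and Mir19b-2 are in neither the sum nor the share, and their number was not measured.

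The miR-92 family was the pool whose makeup differed most between replicates. This pool left out Mir32, at 231 ± 5.95 CPM, and Mir92b, at 181 ± 1.97 CPM, which carry the seed outside the 3 clusters. Mir92-1 held 79.9% of the pool in replicate 1 (79.5 to 80.3) and 72.8% in replicate 2 (72.2 to 73.4), or 76.3% ± 5.04. Mir25 of the Mcm7 cluster moved the other way, from 14.5% to 21.2%. Its 4704 and 4470 counts were 904 and 1213 CPM, or 1059 ± 219 CPM. That is a log2 ratio of 0.43 (0.37 to 0.49) for replicate 2 over replicate 1. The arm of Mir25 differs from that of Mir92-1 at U1C, C14U and C18U over the first 21 bases.
miR-25-3p from Mir25: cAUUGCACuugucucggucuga
Reads of miR-92a that fit both Mir92-1 and Mir92-2 are in none of these counts, and their part in the shares was not tested.

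**Figure D3:**
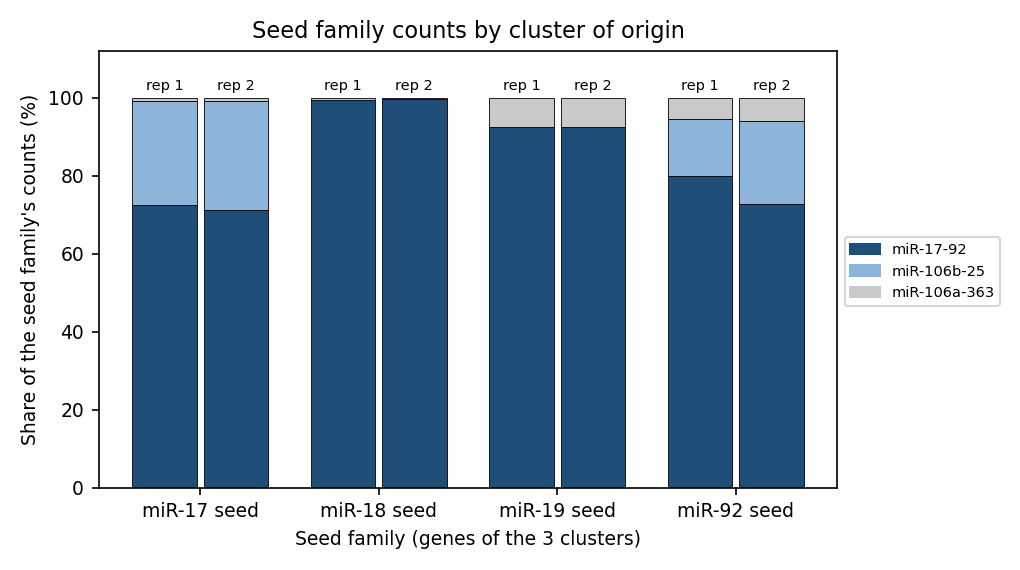
Share in percent of each seed family's counts that came from miR-17-92 (dark), miR-106b-25 (light blue) and miR-106a-363 (grey), in replicate 1 and replicate 2. miR-17-92 held between 71.2% and 99.6% of every family, and the miR-92 family shows the largest gap between replicates.

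The range of levels inside the polycistron was set beside that of other genomic clusters, defined as miRNA genes on the same strand with neighbours within 10 kb and at least 3 detected genes. There were 13 such clusters, with a median log2 ratio of highest over lowest gene of 5.69. miR-17-92 came second at 9.64 ± 0.18, after the cluster on the X chromosome in which Mir322 exceeded Mir450-2 by 11.29 ± 0.22. The paralogous clusters took positions 8, with 5.22 ± 0.10 for Mir106a over Mir19b-2, and 10, with 3.20 ± 0.27 for Mir93 over Mir25. When genes that share a mature sequence with another gene were left out, miR-17-92 came first of 12 clusters at 9.16, with Mir19a as its lowest gene. The order is a description with no test.

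**Figure D4:**
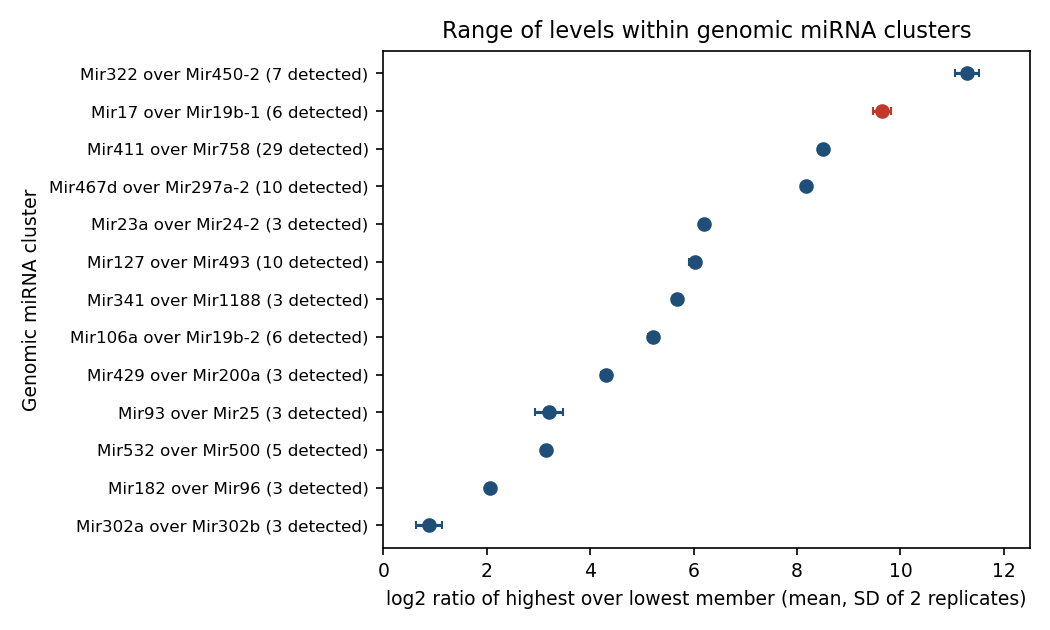
log2 ratio of the highest over the lowest detected gene in each of 13 genomic miRNA clusters, as the mean and SD of 2 replicates, with miR-17-92 in red. The polycistron lies second, at 9.64, and the other clusters lie between 0.88 and 11.29.

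Between the replicates the 6 members differed by at most 0.27 on the log2 scale, for Mir19b-1, followed by Mir92-1. A gene was called different at an adjusted p below 0.05 in a two-sided exact binomial test of its counts, adjusted by Benjamini-Hochberg across all 345 detected genes, if its log2 ratio also reached 1 in either direction. By that rule 0 of 6 members were called, against 3.19% of all detected genes (0.87% higher and 2.32% lower in replicate 2). With no minimum of the ratio, 1 of 6 passed as higher, against 26.7% of detected genes, and 2 of 6 as lower, against 27.2%. That is 3 of 6 in either direction, against 53.9%, and the same number had an unadjusted p below 0.05. edgeR's exact test with an assumed biological coefficient of variation of 0.2 called 0 members, each with an adjusted p of 1, against 0.58% of detected genes. These tests compare the libraries and not conditions.

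The log2 ratio of replicate 2 over replicate 1 was -0.26 for Mir92-1 (95% exact interval -0.28 to -0.23; adjusted p 2.54e-67 in the exact binomial test), with 4988 CPM in replicate 1 and 4169 in replicate 2. Mir20a was lower by a much smaller amount, at -0.05 (-0.06 to -0.03; adjusted p 3.08e-07 in the exact binomial test), and Mir17 was higher, at 0.02 (0.009 to 0.030; adjusted p 0.00087 in the exact binomial test). The direction of Mir17 depended on the scaling, as its ratio was -0.0024 with DESeq2 size factors (adjusted p 0.784 in the exact binomial test). The binomial test holds counting error only and no spread between samples, so small differences pass at such counts. Mir18 at -0.0033, Mir19a at 0.07 and Mir19b-1 at 0.27 (-0.04 to 0.57; adjusted p 0.135 in the exact binomial test) did not pass. The median over the members was 0.0079 and that over all detected genes 0.02, while the median absolute ratio of all detected genes was 0.24, which 2 members, Mir19b-1 and Mir92-1, exceeded. Of the 9 paralogous genes 0 were called, 4 passed as higher and 3 as lower with no minimum, and Mir92-2, the second copy of miR-92a, was lower in replicate 2 at -0.41 (-0.58 to -0.23) as Mir92-1 was. Reads that fit both Mir92-1 and Mir92-2 are missing from both ratios, so these do not measure miR-92a as a whole.

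**Figure D5:**
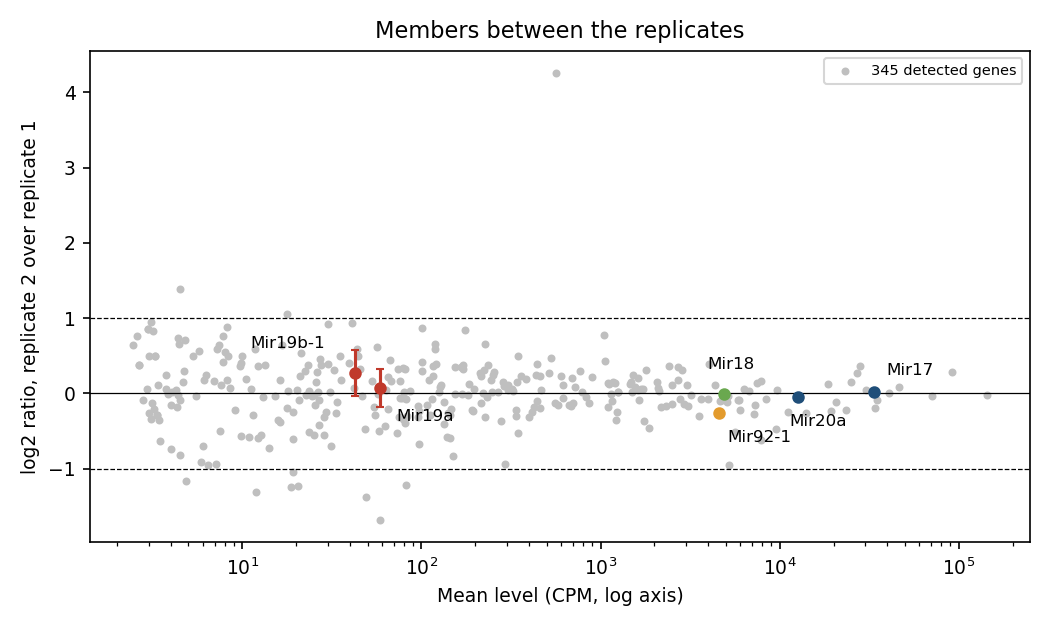
log2 ratio of replicate 2 over replicate 1 against mean CPM (log axis) for the 345 detected genes (grey) and the 6 members (coloured by seed group, with 95% exact intervals); dashed lines mark a ratio of 1 in size. All 6 members lie between -0.26 and 0.27.

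The replicates also differed in markers of cell types. The hepatocyte marker Mir122 had 56.3 CPM in replicate 1 but 1074 CPM in replicate 2, the 3 erythroid miRNAs summed to 161 and 77.6 CPM, and the 4 kidney tubule genes, of which 3 were detected, to 353 and 490 CPM. Among the tubule genes Mir192 had 648 counts in replicate 1 and 824 in replicate 2, and Mir194-2 had 370 and 477, while Mir204 had 815 and 500. These counts are not scaled, and replicate 1 had the larger total (5202588 against 3683978), so their ratios are not ratios of levels. Epithelial miRNAs (5 of 5 detected) summed to 26800 and 23488 CPM, stromal and smooth muscle miRNAs (5 of 5) to 24805 and 25420 CPM, and endothelial Mir126a to 45180 and 47759 CPM. Genes within a sum did not all move alike. The stromal and smooth muscle sum was mostly Mir143 (93068 and 71472 counts), while Mir214 went from 6478 to 5535 CPM and Mir199a-2 from 77.1 to 73.8 CPM. Epithelial Mir141 went from 701 to 738 CPM, against its sum. The 3 leukocyte genes of the tables, all detected, summed to 640 and 591 CPM. Of 3 muscle genes only Mir206 was detected, and Mir1a-1 and Mir133a-1 had 0 counts in both replicates. Neural Mir124a-1 had 0 counts in both, and Mir9-2 had 1 count in replicate 1 and 0 in replicate 2. The symbols Mir1a-1, Mir133a-1, Mir124a-1 and Mir9-2 mark numbered copies, and reads that fit several copies are in no gene's count. Their counts therefore cannot show whether these miRNAs were absent. The members together held 5.61% and 5.52% of counts in the same libraries, and the part of any marker in the lower Mir92-1 of replicate 2 was not tested.

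The hairpins of the members were also compared by composition and predicted fold. Their G and C content ran from 43.7% for Mir19b-1 to 47.5% for Mir92-1, all below the median of 50.5% over the 345 detected genes. All hairpins of miR-106a-363 lay below that median too, from 38.1% for Mir19b-2 to 47.3% for Mir92-2. The 3 genes of the Mcm7 cluster ran from 55.7% to 63.1%. The predicted folding energy per base was -0.47 kcal/mol for Mir19a and -0.43 kcal/mol for Mir19b-1, beside -0.44 for Mir17, -0.36 for Mir20a, -0.30 for Mir18 and -0.425 for Mir92-1, with a median of -0.43 over detected genes. The folds were predicted from the annotated hairpins and not measured, and their part in the levels was not tested. The arm of Mir19a has the lowest G and C content of the printed arms of the polycistron, at 34.8%, those of Mir20a and Mir19b-1 have 39.1%, and that of Mir92-1 has the highest, at 57.1%. No member had a count on the opposite strand. There 0 of 292087 counts in replicate 1 allows up to 0.00103%, and 0 of 203471 in replicate 2 up to 0.00147%. Summed over all genes, 1.93% and 1.80% of counts lay there. Among the paralogous genes only Mir25 had any, 2 counts in replicate 2, so the lack of such counts is not particular to the members.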

How the data were processed

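Size-selected small RNAs from 2 kidney samples were sequenced. For each library the authors deposited unnormalized whole-number counts of reads over miRNA genes, in 3 columns (both strands, the gene's own strand, the opposite strand). The alignment used mm10 with GENCODE M4, per the deposited file descriptions. No source used here names the software for alignment or counting. Each table opens with 4 tallies of unmapped, multimapping, unannotated and ambiguous reads, which were excluded. In the own-strand column they were 50.2% and 45.6% of all reads. Multimapping reads are missing from genes with a second copy.

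Own-strand counts were used. Identifiers were matched, ignoring versions, to GENCODE M21 (1894 of 1973, with all members). Mature sequences are from RefSeq (GRCm38.p6), and shared stretches were searched in the M21 hairpins, which RNAfold 2.7.2 folded. A single group offers no contrast for a quasi-likelihood fit. The exact binomial test used TMM-scaled totals (factors 1.00 in both libraries) over the 345 detected genes. It was run on simulated data with counting error only, which cannot show how it treats spread between samples. Genes named are the members, those of the paralogous clusters, rank neighbours, markers, seed relatives and the ends of the leading other cluster. The members and lists were chosen with earlier results of these data known. TMM factors and the alternative exact test came from edgeR 4.0.16 in R 4.3.3, alternative size factors from DESeq2 1.42.0, and the rest from scipy 1.17.1 under Python 3.11.15. The alternatives are in the closing section.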

Additional observations from a re-analysis of the deposited data

How the results depend on the processing

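No paired analysis was possible because there is only 1 group. With 2 replicates, a value without either one lies within 1 SD of the mean by construction, so leaving out a replicate says nothing about stability. Of the other alternatives for shares, ratios within the polycistron, counts of calls and the cluster range, 13 moved the value and 31 did not. Of these 31, 26 gave the identical value, among them shares and ratios of members with both strands, which their 0 counts on the opposite strand fix, and seed family shares from which no gene drops out. The 36 alternatives for the replicate ratios of single members changed no call at a log2 ratio of at least 1. Of those replicate ratios only that of Mir17 changed sign, from 0.02 to -0.0024 with DESeq2 size factors. With edgeR's exact test the ratios of Mir17, Mir20a and Mir92-1 no longer passed, at an adjusted p of 1. The members' share was 5.46% with both strands, 2.90% of all reads and 6.51% without the most abundant gene. Without Mir19b-1 and Mir92-1 the seed group shares were 90.3% for miR-17, 9.60% for miR-18 and 0.115% for miR-19; no miR-92 gene was left. The seed family shares without genes with a second copy were computed for miR-17 and miR-18, where no gene drops out, and not for miR-19 and miR-92, where 1 gene or 0 members are left. Per base of the annotated gene, Mir17 exceeded Mir18 by 2.97 and Mir20a by 1.76 on the log2 scale. The cluster range was 9.16 without genes that share a mature sequence. Among all genes, 11 were called between replicates, against 5 with a count minimum of 50, 2 with edgeR's exact test and 186 with no minimum of the ratio, where 3 members passed against 0. Mir19a and Mir19b-1 rest on 170 to 298 counts per replicate.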

Other observations

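Other genes carry the same seeds outside the 3 clusters, and the seed family shares leave them out. In the RefSeq table, the seed of Mir92-1 also occurs in Mir32, at 231 ± 5.95 CPM (SD, n = 2; 1223 and 835 counts), in Mir92b, at 181 ± 1.97 CPM (948 and 661 counts), and in Mir367, with 0 counts in both replicates, where 3 counts, the limit that a count of 0 allows, would be 0.577 and 0.814 CPM. Both Mir32 and Mir92b were far below Mir92-1 at 4578 ± 579 CPM and were more alike in the replicates. The seed of Mir17 also occurs in Mir6383, which had 0 counts in both. Outside the 3 clusters no gene of that table has the seed of Mir18 or that of Mir19a.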
